A study of Mus musculus with 4 samples.

Results

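Glycolysis and hypoxia response genes are described here as a set of 36 genes, measured in sorted kidney collecting duct cells of newborn mice with or without the (pro)renin receptor. The set was chosen by name and not by its values. It holds 23 metabolic genes, which encode glucose transporters, glycolytic enzymes and their regulators, lactate dehydrogenase, lactate transporters and a pyruvate dehydrogenase kinase, and 13 genes known as hypoxia-induced outside glycolysis. Array probes were assigned through their accessions, and 34 of the 36 genes had at least 1 probe. After a filter on dim probes 32 were tested among 15948 genes, 21 metabolic and 11 hypoxia-only. No probe was matched to Gapdh, the glyceraldehyde-3-phosphate dehydrogenase, or to Ndrg1, a stress-induced gene. The probes of Slc2a3, a glucose transporter best known from neurons, and Car9, a carbonic anhydrase used as a hypoxia marker, were not well above background on any array.

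Glycolysis splits glucose into pyruvate in the cytosol, and lactate dehydrogenase and lactate transporters carry the end product out of the cell when pyruvate is not burned in mitochondria. When oxygen is short, prolyl hydroxylases no longer mark the hypoxia-inducible factor for destruction, and the factor raises transcription of most glycolytic enzymes, of Slc2a1 and Slc16a3, and of genes such as Vegfa and Bnip3. The kidney medulla, through which collecting ducts run, is a tissue of low oxygen, and its epithelium is known to rely on glycolysis.

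The knockout cells came from HoxB7CreEGFP+; PRR flox/flox pups and the control cells from CreEGFP+ PRR+/+ pups, all at postnatal day 1. PRR is the receptor's name and Atp6ap2 its gene, and its product also accompanies the vacuolar proton pump. Both groups carried the transgene, in which the HoxB7 promoter, active in the ureteric bud lineage, drives Cre recombinase and a green fluorescent protein, and cells were sorted by that fluorescence. RNA was pooled, with 0.5 µg in each labelling reaction. Knockout RNA was in Cy5 on 2 arrays, called knockout arrays 1 and 2 here, with wild-type pool 1 or 2 in Cy3. On the other two arrays, called the pool 1 and pool 2 arrays, a wild-type pool was in both dyes. The labels conflict: titles name the knockout arrays wild type and the wild-type arrays KO, and descriptions exchange the pools of the wild-type arrays. Groups therefore follow the source given for each channel, and every direction between genotypes would turn if the titles were right. The labels do not number the knockout pools, no array had the dyes swapped between genotypes, and separate animals are not stated, so p-values measure only the spread between these arrays.

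Promoters are shown for Slc16a3, Slc2a1, Pfkfb3 and Eno2, the 4 members with the highest difference between knockout and wild type, and for Slc16a1, which stood near 0 beside its relative Slc16a3. Each is the 250 bases before the RefSeq transcription start in GRCm38.p6, read 5′ to 3′ on the gene's strand, with capitals marking ACGTG, the core letters of the hypoxia response element, on either strand. The windows are Slc16a3 at chr11:120948817-120949066, Slc2a1 at chr4:119108495-119108744 and Slc16a1 at chr3:104638414-104638663, on the plus strand, and Pfkfb3 at chr2:11502091-11502340 and Eno2 at chr6:124769674-124769923, on the minus strand.
Slc16a3: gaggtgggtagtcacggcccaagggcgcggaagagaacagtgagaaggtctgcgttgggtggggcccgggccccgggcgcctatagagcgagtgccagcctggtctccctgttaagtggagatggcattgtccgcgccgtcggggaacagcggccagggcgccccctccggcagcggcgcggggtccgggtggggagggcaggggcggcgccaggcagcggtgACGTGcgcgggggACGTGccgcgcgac
Slc2a1: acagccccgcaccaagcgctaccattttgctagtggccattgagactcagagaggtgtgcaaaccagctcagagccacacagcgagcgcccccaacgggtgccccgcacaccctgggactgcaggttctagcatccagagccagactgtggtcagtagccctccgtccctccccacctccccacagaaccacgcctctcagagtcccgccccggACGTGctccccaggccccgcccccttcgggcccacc
Pfkfb3: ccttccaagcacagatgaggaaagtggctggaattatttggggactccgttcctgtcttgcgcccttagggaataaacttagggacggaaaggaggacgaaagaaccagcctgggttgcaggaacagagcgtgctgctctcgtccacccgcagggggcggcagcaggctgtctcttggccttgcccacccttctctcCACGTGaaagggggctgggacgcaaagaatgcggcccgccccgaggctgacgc
Eno2: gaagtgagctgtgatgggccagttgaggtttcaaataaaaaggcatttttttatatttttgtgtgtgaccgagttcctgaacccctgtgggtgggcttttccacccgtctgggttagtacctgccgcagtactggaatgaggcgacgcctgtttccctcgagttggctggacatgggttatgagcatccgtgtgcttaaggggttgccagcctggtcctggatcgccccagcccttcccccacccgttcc
Slc16a1: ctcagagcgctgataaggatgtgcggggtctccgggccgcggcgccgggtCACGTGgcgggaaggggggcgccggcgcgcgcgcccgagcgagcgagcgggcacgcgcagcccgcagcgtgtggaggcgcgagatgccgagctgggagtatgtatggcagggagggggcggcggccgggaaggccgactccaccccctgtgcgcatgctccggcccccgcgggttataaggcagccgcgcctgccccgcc
Slc16a3 had 2 matches on the plus strand, their first bases 27 and 14 bases before the start, and Slc2a1 had 1, 36 bases before it. Eno2 had 0 matches. Pfkfb3, for which the first of its windows is shown, had 2, a pair that reads the same on both strands and forms the E-box CACGTG, which other factors bind too, and its second window had 1, outside an E-box. In the bases shown both matches of Slc16a1 lay in such an E-box, and past the start its 300-base window held 1 more, outside an E-box. A match is a description of letters, not a site in use.

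Over windows of 300 bases (250 before to 50 after each start), promoters of 33 members were in the table, 51 windows in all. ACGTG stood in 27 of them (52.9%) and in 6447 of 32851 windows of all genes (19.6%), and outside an E-box in 49.0% of the members' windows against 13.6% of all. GCGTG, the other common form of the core, stood in 52.9% of the members' windows and in 32.4% of all. The windows of the members were also richer in G and C, at 61.7% against 53.8% of bases, and several members are in the set because they are known targets of the factor. The hypoxia-only members had ACGTG in 62.5% of windows and the metabolic members in 48.6%.

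Several facts of the arrays bear on every value below. Cy5 held 22713 and 20796 of 41174 probes well above background on knockout arrays 1 and 2, against 20028 and 18424 on the pool 1 and pool 2 arrays. Cy3 was empty on knockout array 1, with 28 such probes, so only knockout array 2 set both genotypes side by side. All 17 measured markers of the sorted lineage were detected in Cy5 on all 4 arrays. The pool 2 array stood apart. Its spike-in controls, transcripts added at labelling, had a median Cy5 signal of 5.60, where knockout arrays 1 and 2 had 4606 and 1786 and the pool 1 array 3783. The summed Cy5 level of proximal tubule markers was 3062 and 2143 on knockout arrays 1 and 2, against 4226 on the pool 1 array and 31447 on the pool 2 array. That of loop and distal tubule markers was 6188 and 4742 in knockout, against 8054 and 13500 in wild type. In Cy3 too, pool 2 was above pool 1 in 8 of 8 proximal tubule markers, with a median log2 difference of 2.14. The same held for 5 of 6 loop and distal tubule markers, median 1.49. The difference from pool 1 alone is therefore given beside that from both pools for each list, and for a part of the members. Atp6ap2 itself read 8.08 and 7.72 on the log2 scale on the knockout arrays, against 8.37 and 8.51 on the wild-type arrays. The difference was -0.54 ± 0.17 (SE, limma, adjusted p = 0.800). Whether its probe lies in the deleted stretch is not known here.

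The first comparison asked whether the genes differed between knockout and wild-type cells in Cy5, the dye that carried knockout RNA on 2 arrays and wild-type RNA on 2. All 32 tested members had a higher mean level in knockout, where 55.4% of all tested genes did, and 30 of 32 with the scanner software's processed signals, where Hk1 and Mxi1 turned. Both knockout arrays lay above both wild-type arrays in 23 of the 32 (22.5% of all genes) and below both in 0 (17.1%). The median log2 difference was 0.43 over the 21 metabolic members and 0.24 over the 11 hypoxia-only members, against 0.02 over all genes. No single gene passed, however. Of 15948 genes 0% had a limma adjusted p under 0.05, the smallest being 0.800, while 496 genes were higher and 171 lower in knockout at an unadjusted p under 0.05. Of the members 11 were among those higher at an unadjusted p under 0.05 (3.11% of all genes), all of them metabolic. Without the pool 1 array, knockout is set against pool 2 alone, the pool high in tubule markers. With the arrays left normalized anew, the medians were 0.49 for the metabolic and 0.19 for the hypoxia-only members, against 0.04 over all genes. A test there would rest on the spread between the knockout arrays alone, with the lone wild-type array assumed to vary alike. Only sizes are therefore read from that fit.

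Set against pool 1 alone, whose tubule marker sums lay nearer to those of the knockout arrays, 31 of 32 members were higher (50.4% of all genes), with medians of 0.34 for the metabolic and 0.17 for the hypoxia-only members. Set against pool 2 alone 30 of 32 were higher (56.7% of all genes), with medians of 0.48 and 0.20. Differences from pool 1 alone were lower than those from both pools in 21 of the 32 members. Among these were Slc16a3 (1.19 from pool 1), Slc2a1 (0.74), Pfkfb3 (0.64) and Ldha (0.45). Others were Hk1, Pgk1 and Pfkl (0.19 each), Kdm3a (0.11), Pfkm (0.10), Egln1 (0.08) and Mxi1 (0.04). The differences from pool 1 were the higher ones in 11 members, with Aldoc at 0.71, Bnip3 at 0.50, Ankrd37 at 0.40, Slc16a1 at 0.35 and Pfkfb4 at 0.25. Of 8 members with 2 or more probes in the fit, 3 had probes that differed in sign, Hk1, Slc16a1 and Bnip3l. In bulk RNA a change in the share of cells that express a gene and a change of RNA per cell cannot be told apart.

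**Figure D1:**
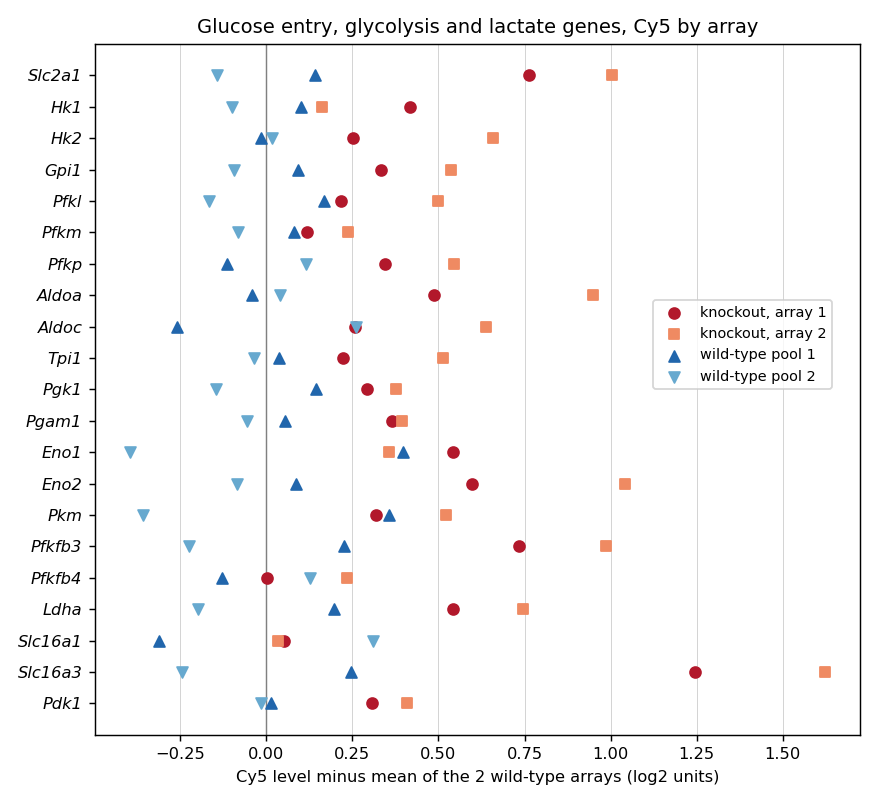
Cy5 level of the 21 tested metabolic members on each array, as log2 units above or below the mean of the 2 wild-type arrays. Knockout points lie right of both wild-type points in 16 of the 21 genes (22.5% of all tested genes), with the widest gap in Slc16a3.

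Slc2a1 (GLUT1), the transporter that brings glucose into most cells, stood at 9.64 and 9.88 on knockout arrays 1 and 2, against 9.02 and 8.73 on the pool 1 and pool 2 arrays. Both knockout values were above both wild-type values, by a mean of 0.88 ± 0.16 (SE, n = 2 arrays each), 1.84-fold (limma unadjusted p = 0.00333, adjusted p = 0.800). The 95% interval of this difference ran from 0.46 to 1.31.

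Slc16a3 (MCT4), the lactate exporter of glycolytic cells, had the highest difference of the set. It read 8.49 and 8.87 on the knockout arrays, against 7.49 and 7.0 on the pool 1 and pool 2 arrays. The difference was 1.43 ± 0.23 (SE), 2.70-fold, with a limma unadjusted p of 0.00180 and an adjusted p of 0.800. Its relative Slc16a1 (MCT1), which moves lactate in either direction, stood close to equal. It read 8.27 and 8.26 on the knockout arrays, against 7.91 and 8.53 on the pool 1 and pool 2 arrays, so knockout lay between the pools and differed from their mean by 0.04 ± 0.23, with an interval of -0.55 to 0.64. A second Slc16a1 probe differed by -0.04.

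Ldha, the lactate dehydrogenase subunit that turns pyruvate into lactate, stood at 12.86 and 13.06 on the knockout arrays, against 12.51 and 12.12 on the pool 1 and pool 2 arrays. The difference was 0.64 ± 0.18 (SE; limma unadjusted p = 0.0173), and a second probe gave 0.51. Pdk1, a kinase that holds pyruvate back from mitochondria by switching off pyruvate dehydrogenase, read 7.63 and 7.73 in knockout, against 7.34 and 7.31 in wild type. For both genes the knockout values lay above both wild-type values, and Pdk1 differed by 0.36 ± 0.11 (SE; limma unadjusted p = 0.0268).

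Of the regulators, Pfkfb3 makes the fructose-2,6-bisphosphate that speeds up phosphofructokinase. It read 9.25 and 9.50 on the knockout arrays, against 8.74 and 8.29 on the pool 1 and pool 2 arrays, a difference of 0.86 ± 0.20 (SE, limma unadjusted p = 0.00846). A dimmer probe of the gene gave 0.31. It was well above background on both knockout arrays and on neither wild-type array, so this value is not a measured size. The mean over the probes in the fit gave 0.59. Pfkfb4, an enzyme of the same family, overlapped between genotypes, at 7.46 and 7.69 on the knockout arrays, against 7.33 and 7.59 on the wild-type arrays.

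The 14 tested glycolytic enzymes all had a higher mean in knockout (55.4% of all genes), by 0.18 for Pfkm to 0.82 for Eno2. Of these enzymes 11 had both knockout arrays above both wild-type arrays (22.5% of all genes). Several of these genes have near-identical pseudogene copies, and cross-binding of their probes was not tested. Aldoa, the main aldolase of muscle and many growing cells, read 14.68 and 15.14 on the knockout arrays, against 14.15 and 14.23 on the pool 1 and pool 2 arrays. Its groups were apart by 0.72 ± 0.19 (SE; limma unadjusted p = 0.0133), with a second probe, in the dark patch of the pool 1 array described under the processing, left out of the fit. Eno2, the enolase known as the neuronal form, read 7.68 and 8.12 in knockout, against 7.17 and 7.0 in wild type. Its difference was 0.82 ± 0.19 (SE; limma unadjusted p = 0.00824), and its second probe gave 0.82 too.

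At the first step, Hk2, the inducible hexokinase that traps glucose as glucose-6-phosphate, read 7.51 and 7.91 on the knockout arrays, against 7.24 and 7.27 on the pool 1 and pool 2 arrays. It differed by 0.45 ± 0.17 (SE; limma unadjusted p = 0.0467). Hk1, the constitutive hexokinase, read 7.96 and 7.70 in knockout, against 7.64 and 7.44 in wild type, a difference of 0.29 that turned to -0.01 with the scanner software's processed signals, and 2 of its 4 probes in the fit were slightly below 0. Gpi1, which converts glucose-6-phosphate to fructose-6-phosphate, read 13.47 and 13.67 in knockout, against 13.23 and 13.05 in wild type. The difference of Gpi1 was 0.43 ± 0.14 (SE; limma unadjusted p = 0.0285).

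Phosphofructokinase commits sugar to glycolysis and has 3 subunit genes, all measured. Pfkp, the platelet form, read 7.90 and 8.10 on the knockout arrays, against 7.44 and 7.67 on the pool 1 and pool 2 arrays, a difference of 0.45 ± 0.15 (SE; limma unadjusted p = 0.0302). Pfkl, the liver form, read 8.94 and 9.22 in knockout, against 8.89 and 8.55 in wild type, and differed by 0.36 ± 0.18 (SE). Pfkm, the muscle form, was nearest to equal, at 10.00 and 10.12 in knockout, against 9.97 and 9.80 in wild type. In all 3 the knockout values lay above both wild-type values, by as little as 0.04 over pool 1 for Pfkm.

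Further down the pathway Tpi1, the triose phosphate isomerase, differed by 0.37 ± 0.15 (SE), Pgk1, a phosphoglycerate kinase that makes ATP, by 0.34 ± 0.15, and Pgam1, the phosphoglycerate mutase, by 0.38 ± 0.11 (limma unadjusted p = 0.0223 for Pgam1). Their knockout arrays lay above both wild-type arrays. Overlapping genes were Aldoc, Eno1 and Pkm. Eno1, the widespread enolase, read 10.06 and 9.87 on the knockout arrays, against 9.91 and 9.12 on the pool 1 and pool 2 arrays, and Pkm, the pyruvate kinase of most tissues, read 10.09 and 10.30 in knockout, against 10.13 and 9.42 in wild type. Both were below pool 1 on 1 knockout array, and their differences of 0.45 and 0.42 from the mean of the pools came to 0.05 and 0.06 from pool 1 alone. Aldoc, the brain aldolase, read 8.77 and 9.15 in knockout, against 8.26 and 8.78 in wild type, where pool 2 was the higher pool.

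**Figure D2:**
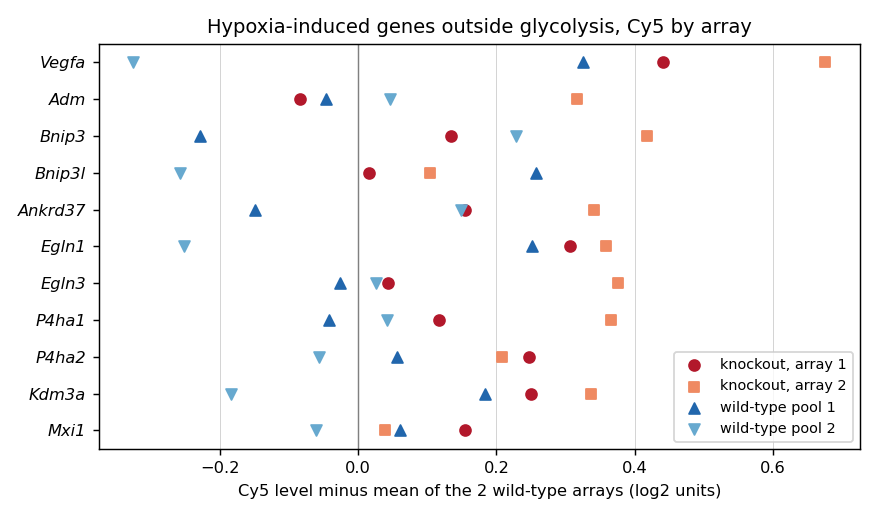
Cy5 level of the 11 tested hypoxia-only members on each array, as log2 units above or below the mean of the 2 wild-type arrays. Knockout points lie right of both wild-type points in 7 of the 11 genes (22.5% of all tested genes), and the differences run from 0.06 for Bnip3l to 0.56 for Vegfa.

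Hypoxia-induced genes outside glycolysis were also higher on average in knockout, 11 of 11 (55.4% of all genes), by 0.06 to 0.56. None of them had a limma unadjusted p under 0.05. Vegfa, the growth factor that draws in blood vessels, led with 9.50 and 9.74 on the knockout arrays, against 9.39 and 8.74 on the pool 1 and pool 2 arrays. The difference was 0.56 ± 0.25 (SE; limma unadjusted p = 0.0774), with 0.23 against pool 1 alone, and further probes of the gene gave 0.38 and 0.10.

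Egln1 and Egln3 encode prolyl hydroxylases that act on the hypoxia-inducible factor and are themselves induced by it. Egln1 read 8.08 and 8.13 on the knockout arrays, against 8.03 and 7.52 on the pool 1 and pool 2 arrays, a difference of 0.33 ± 0.20 (SE). Egln3 read 6.87 and 7.20 in knockout, against 6.80 and 6.85 in wild type, and differed by 0.21 ± 0.15. Kdm3a, a histone demethylase, differed by 0.29 ± 0.16, and the collagen prolyl hydroxylase genes P4ha1 and P4ha2 by 0.24 ± 0.14 and 0.23 ± 0.11. In these 5 genes the knockout values lay above both wild-type values, with a gap of under 0.1 to the nearer pool for Egln1, Egln3, P4ha1 and Kdm3a on knockout array 1.

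Ankrd37, an ankyrin repeat gene, read 7.27 and 7.45 on the knockout arrays, against 6.96 and 7.26 on the pool 1 and pool 2 arrays, above both by a narrow margin. The remaining members overlapped between genotypes. Bnip3, which marks mitochondria for removal, read 9.74 and 10.03 in knockout, against 9.38 and 9.84 in wild type. Its relative Bnip3l read 9.48 and 9.57 in knockout, against 9.73 and 9.21 in wild type, and differed by -0.20 from pool 1 and 0.32 from pool 2, with a second probe at -0.13 from their mean. Adm, the vasodilator peptide adrenomedullin, read 6.78 and 7.18 in knockout, against 6.82 and 6.91 in wild type. Mxi1, an antagonist of Myc, read 8.56 and 8.45 in knockout, against 8.47 and 8.35 in wild type, and its difference of 0.10 turned to -0.29 with the processed signals.

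Knockout array 2 allowed a second view, since it held knockout RNA in Cy5 and wild-type pool 2 in Cy3 on the same spots. With no replicate there is no test, and the wild-type side is pool 2, the pool high in tubule markers. Proximal tubule markers had a median log2 ratio of -2.78 there, with 0 of 8 above 0. The ratio of knockout over pool 2 was above 1 in 30 of 32 members (56.3% of all genes), the exceptions being Slc16a1 at -0.55 and Pfkp at -0.08 on the log2 scale. It was at least 1.25-fold higher in knockout in 21 (19% of all genes). Medians were 0.48 for the metabolic and 0.42 for the hypoxia-only members, against 0.05 for all genes. The highest log2 ratios were 1.64 for Slc16a3, 1.21 for Slc2a1, 1.20 for Ldha, 1.16 for Pfkfb3 and 1.02 for Vegfa. The pool-against-itself arrays, where both dyes held the same RNA, gave medians of 0.05 and -0.02 for the metabolic and 0.10 and 0.03 for the hypoxia-only members, pool 1 first. Ldha read 0.23 and 0.24 there, and less their mean its shared-array ratio was 0.97.

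Knockout array 1 in Cy5 against the pool 1 array shares no RNA channel with knockout array 2 against pool 2 on the shared array, although all arrays were normalized together and the 2 knockout pools are not numbered. Knockout array 1 was above pool 1 in 29 of 32 members (48.7% of all genes). In both comparisons at once 27 of 32 members were higher in knockout (26% of all genes), 18 of 21 metabolic and 9 of 11 hypoxia-only, and 0 were lower in both. Pfkp and Slc16a1 were higher in the first only, and Adm, Bnip3l and Pkm in the second only.

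**Figure D3:**
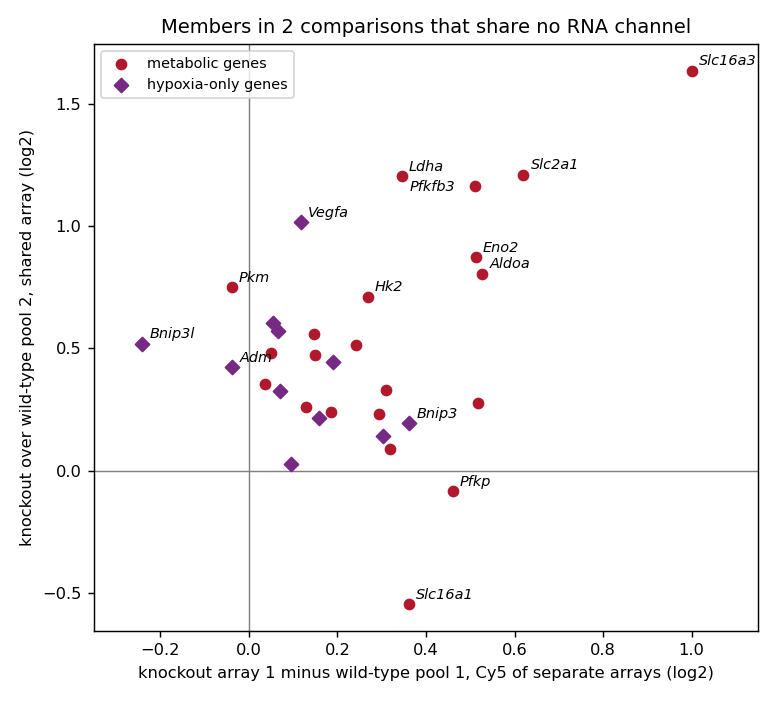
Each tested member by the log2 difference of knockout array 1 from the pool 1 array in Cy5 (horizontal) and by the log2 ratio of knockout over wild-type pool 2 on the shared array (vertical). Of 32 points 27 lie above 0 on both axes (26% of all tested genes), led by Slc16a3, and none below 0 on both.

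The 2 knockout arrays also differed from each other. Array 2 was above array 1 in 27 of 32 members (51.8% of all genes), with medians of 0.20 for the metabolic and 0.19 for the hypoxia-only members, against 0.01 for all genes. It was at least 1.25-fold above in 7 members (1.81% of all genes). The largest steps were in Aldoa at 0.46, Eno2 at 0.44, Hk2 at 0.41, Adm at 0.40 and Aldoc at 0.38, and Hk1, Eno1 and Mxi1 ran the other way, at -0.26, -0.19 and -0.11. P4ha2 and Slc16a1 were within 0.04. Under median centring of each array in place of quantile normalization the medians were -0.02 for both member groups, where all genes stood at -0.18, so each group still stood 0.16 above all genes while its own sign turned. Handling and stress genes (immediate early and heat shock genes) had the same order, with 17 of 20 higher on array 2 and a median of 0.14. Which knockout pool each array carried is not numbered, so pool, array and labelling reaction cannot be told apart here.

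The wild-type pools differed from each other as well. Pool 2 was below pool 1 in Cy5 in 21 of 32 members (54.6% of all genes), with medians of -0.17 for the metabolic and -0.11 for the hypoxia-only members, against -0.04 for all genes. It was at least 1.25-fold below in 10 (20% of all genes) and as far above in 3. Eno1 at -0.79, Pkm at -0.71 and Vegfa at -0.65 were lowest in pool 2, and Slc16a1 at 0.62, Aldoc at 0.52 and Bnip3 at 0.46 highest. In Cy3, with pool 2 taken over 2 channels, 20 of 32 members were lower in pool 2 (53.1% of all genes), with Slc16a1 at 0.73, Bnip3 at 0.55 and Aldoc at 0.47 above and Slc16a3 at -0.71 below. Under median centring the metabolic median in Cy3 turned to 0.06, and in Cy5 the hypoxia-only members, at -0.37, stood above all genes, at -0.54.

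**Figure D4:**
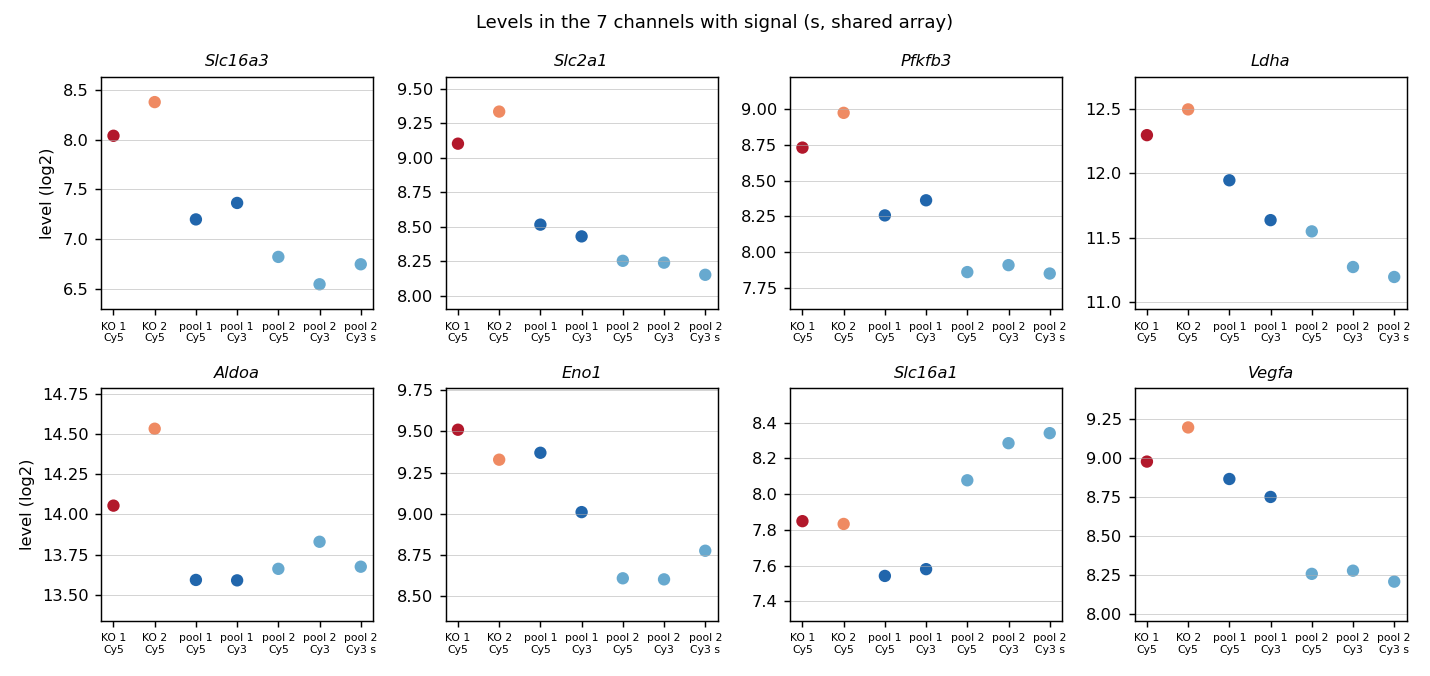
Levels of 8 members in the 7 channels with signal, normalized together (log2), with knockout in red tones and wild-type pools in blue, and s marking the shared array. Both knockout points lie above all 5 wild-type points in Slc16a3, Slc2a1, Pfkfb3, Ldha, Aldoa and Vegfa, and not in Eno1 or Slc16a1.

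When the 7 channels with signal were normalized together, both knockout channels lay above all 5 wild-type channels in 19 of 32 members (12.3% of all genes), 15 of 21 metabolic and 4 of 11 hypoxia-only, and below all in 0. Slc16a3 read 8.04 and 8.37 in the knockout channels, against 7.20 and 7.37 for pool 1 in Cy5 and Cy3, and 6.82, 6.55 and 6.75 for pool 2. Slc16a1 lay between the pools in every dye, at 7.85 and 7.83 in knockout, against 7.54 and 7.58 for pool 1 and 8.08, 8.29 and 8.34 for pool 2. Channels of the same pool share their RNA and are not replicates of each other. In Cy3, Egln3 and P4ha2 were not well above background in any of the 3 wild-type channels, so their Cy3 values and shared-array ratios carry only a bound. Both are among the 4 hypoxia-only members counted above all wild-type channels. They are also among the 21 members at least 1.25-fold higher in knockout on the shared array. Adm, whose shared-array ratio of 0.42 is the hypoxia-only median, was well above background in only 1 of the 3 Cy3 channels.

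Other genes of carbohydrate metabolism gave values that moved with the wild-type pool and the scaling. Of 12 tested glycolytic isoenzymes outside the set, related transporters and kinases among them, 2 were higher and 10 lower in knockout, median -0.23. Against pool 1 alone 4 were higher, median -0.07, and against pool 2 alone 3, median -0.43, and under median centring 8 were higher, median 0.17, where all genes stood at 0.33. Pdk4, another pyruvate dehydrogenase kinase, differed by -0.49 ± 0.18 (SE; limma unadjusted p = 0.0431), and Ldhb, the lactate dehydrogenase subunit of oxidative tissues, by -0.29 ± 0.12, with -0.35 and -0.24 against pool 1 alone. Slc2a2, the glucose transporter of liver and proximal tubule, differed by -0.80 ± 0.33, with -0.32 against pool 1 and -1.29 against pool 2.

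Gluconeogenesis, which in the kidney belongs to the proximal tubule, had 1 of 6 genes higher in knockout, median -1.79. That median came to -0.33 for pool 1 alone and to -3.11 for pool 2 alone, and Fbp1, Pck1, Pcx and G6pc differed by -2.45, -1.90, -1.70 and -1.89 from both pools and by -0.75, -0.59, -0.37 and -0.29 from pool 1. Proximal tubule markers had the same pattern, with 0 of 8 higher, a median of -1.46 against both pools and -0.37 against pool 1. Pyruvate dehydrogenase and citrate cycle genes were lower in 13 of 16, median -0.12. Against pool 1 alone 8 were higher and 8 lower, median -0.03, and against pool 2 alone 15 were lower, median -0.20. Under median centring 15 of 16 were higher in knockout, but so were most of all genes, by the share given at the end. The list's median was 0.40 there, where all genes stood at 0.33, a difference of 0.07. Citrate synthase, Cs, was the highest of them in quantile-normalized data at 0.33 ± 0.15 (SE), with 0.41 against pool 1. Fh1, Mpc2 and Suclg1, next by limma unadjusted p, were lower in knockout, at -0.40, -0.64 and -0.39. Against pool 1 alone they stood at -0.16, -0.17 and -0.11. The 4 tested pentose phosphate genes had a median of -0.03, of -0.04 against pool 1, and of 0.39 under median centring, where all genes stood at 0.33.

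**Figure D5:**
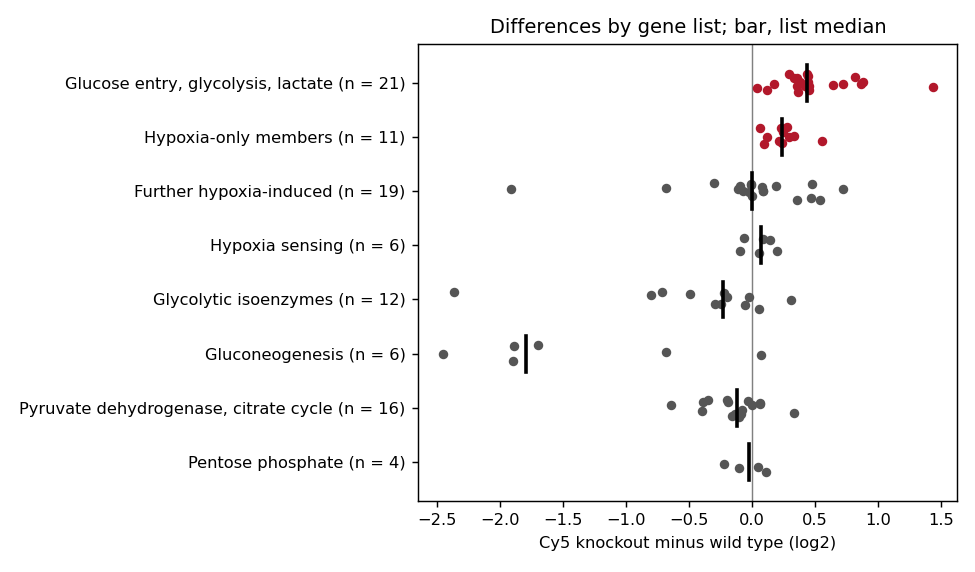
Cy5 difference of knockout from the mean of both wild-type pools (log2, quantile normalized) for each tested gene of the members and of related lists, with a bar at each list's median. All members lie above 0, while gluconeogenesis and, under this normalization and against both pools, the glycolytic isoenzymes outside the set lie mostly below 0.

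Of 6 tested genes that sense oxygen, 4 were higher in knockout, median 0.07, and 3 against pool 1 alone, median -0.05, with Vhl, which marks the hypoxia-inducible factor for destruction, at 0.20 ± 0.11 (SE) and Hif1a, the factor's oxygen-regulated subunit, at 0.14 ± 0.14 and 0.02 against pool 1. Epas1 and Hif3a, which encode related subunits, were not well above background on any array. A further 19 genes known as hypoxia-induced stood at 10 higher and 9 lower, median 0.00, at 12 higher and 7 lower against pool 1 alone, median 0.09, and 0.04 above all genes under median centring. Ddit4, an inhibitor of mTOR, read 11.06 and 11.51 on the knockout arrays, against 10.44 and 10.69 on the pool 1 and pool 2 arrays, a difference of 0.72 ± 0.20 (SE; limma unadjusted p = 0.0171). Tfrc, the transferrin receptor, differed by 0.48 ± 0.16 and Tgfb3, a growth factor, by 0.47 ± 0.19, with 0.54 and 0.31 against pool 1. Both knockout arrays lay below both wild-type arrays in 4 of the 19 (17.1% of all genes). Angptl4, an inhibitor of lipoprotein lipase, was the lowest of them at -1.91 ± 0.87, with -0.59 against pool 1 and -3.23 against pool 2. The other three, chosen after their values were seen, were Hmox1, a heme oxygenase, at -0.68, with -0.08 against pool 1 and -1.27 against pool 2, Hilpda, a lipid droplet protein, at -0.11, and Cxcr4, a chemokine receptor, at -0.09.

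Markers of other cells and of handling gave the following levels beside those of the members. Handling and stress genes were higher in knockout in 19 of 20, median 0.20. Against pool 1 alone 19 of 20 were higher, median 0.36, beside 0.34 for the metabolic and 0.17 for the hypoxia-only members, and against pool 2 alone 14 of 20, median 0.24. Under median centring their median stood 0.42 above all genes, beside 0.56 and 0.25 for the 2 member groups. Their summed Cy5 level was 35399 and 38625 on knockout arrays 1 and 2, against 30803 and 29707 on the pool 1 and pool 2 arrays, with all 20 detected on all 4 arrays. The summed level of the members, led by Aldoa as the brightest, had the same order, 73821 and 89995 in knockout, against 58582 and 54384 in wild type. Collecting duct and ureteric bud markers summed to 64137 and 67548 in knockout, against 62404 and 53159 in wild type, and 13 of 17 were higher, median 0.13, or 11 of 17 against pool 1, median 0.06. Intercalated cell markers summed to 7987 and 8825 in knockout, against 6551 and 5272 in wild type, sums led by Rhcg, the brightest of them. Of these 8 genes 3 were higher and 5 lower in knockout, with a median of -0.06, and of -0.03 against pool 1. Erythroid markers summed to 9847 and 7467 in knockout, against 11267 and 4273 in wild type, stromal markers to 5116 and 4410 in knockout, against 6192 and 3723 in wild type, endothelial markers to 1744 and 1482 in knockout, against 1974 and 1638 in wild type, and leukocyte markers to 1200 and 1085 in knockout, against 1278 and 1149 in wild type. Against both pools the medians were 0.09 for erythroid, 0.02 for stromal, -0.21 for endothelial, -0.12 for leukocyte and -0.88 for loop and distal tubule markers, and against pool 1 alone -0.37, -0.32, -0.35, -0.15 and -0.23. Pvalb of the distal tubule, Tek of endothelium, Laptm5 of leukocytes and Epb42 of red cells were not well above background on any array. The part of the handling genes, the tubule markers and the arrays' signal in the members' differences was not tested.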

How the data were processed

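Labelled RNA of sorted cells was measured on 4 two-colour Agilent arrays, all on 1 slide. The scans were quantified by Feature Extraction 10.7.3.1, per the file headers. For both dyes the authors deposited intensity values with a local background and a processed signal, plus the software's log10 ratio, Cy5 over Cy3. All 45018 values of every array in the series-wide deposited table equalled that log10 ratio (median 0.173 on knockout array 1, 0 on the rest). The array design's gene names were replaced through accessions with symbols of a RefSeq table (GRCm38.p6), which matched 22951 of 41174 probes. No spot was saturated.

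Cy5 intensities were background-corrected (normexp, offset 50), quantile normalized over the 4 arrays and put on the log2 scale. A probe entered when both arrays of either genotype had it well above background in Cy5, and the brightest such probe stood for a gene. On the pool 1 array 643 spots in a dark patch were dropped, where 28.3% of 120 bright spots had lost more than 2 log2 units. Differences were tested two-sided with limma 3.58.1 in R 4.3.3 over all genes with Benjamini-Hochberg adjustment at 0.05, n = 2 arrays each, which limits the precision. The shared array's ratio was loess normalized, and 7 channels were quantile normalized together. The scripts were tested on simulated data. Scaling, background, filter, patch, probe choice, replicates and a replicate block were varied. Members, lists and tests were chosen with earlier results of these data known, and the named genes of other lists were up to 4 with the smallest p, of which 1 is not reported here.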

Additional observations from a re-analysis of the deposited data

How the results depend on the processing

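In the alternatives that kept all 4 arrays no member passed the adjusted threshold. Fits that left 1 array in a group are read by size only, and no conclusion is drawn from their counts of calls, listed below. Over 11 alternatives 7 of 352 member differences turned in direction. Those that turned were Hk1 (-0.0088) and Mxi1 (-0.29) with the processed signals, Bnip3l with the mean over probes (-0.034) and without the pool 2 array (-0.20), Adm without knockout array 2 (-0.081), and Pfkfb4 (-0.0087) and Slc16a1 (-0.27) without the pool 1 array. Over all arrays left out in turn the highest values of the last 4 were 0.32 (Bnip3l), 0.28 (Adm), 0.27 (Pfkfb4) and 0.37 (Slc16a1). Leaving out each array gave 0 to 2547 genes higher and 0 to 1886 lower past the adjusted p, 0 to 17 members, 0 to 14 metabolic and 0 to 3 hypoxia-only. All member calls came from the fit without the pool 1 array, which set knockout against pool 2 alone, the pool high in tubule markers. That fit rests on the spread between the knockout arrays alone, so its calls are not read as results. With each array left out in turn the medians ran from 0.330 to 0.521 for the metabolic and 0.149 to 0.330 for the hypoxia-only members. The fit with a replicate block gave 0 calls. Its medians (0.434 and 0.242) had to be the same, since each replicate number holds 1 array of each genotype. The filter that asked for signal on all 4 arrays could not change a member either, as all 32 had it. Both settings count among the 11 alternatives, although no difference could turn in them. Same-numbered arrays deviated together at a correlation of 0.0384 across genes. With 2 arrays per group this value cannot show whether they share more than a number.

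With the processed signals the hypoxia-only median was 0.384 in Cy5, the shared-array medians 0.604 (metabolic) and 0.894 (hypoxia-only), and the hypoxia-only difference of pool 2 from pool 1 -0.288. With the self ratios subtracted the shared-array medians were 0.420 and 0.368. Median centring moved all genes to 0.330 in Cy5, with 88.9% of genes higher in knockout against 55.4% and 37.7% above both wild-type arrays against 22.5%. The member medians were 0.885 and 0.581 there, 0.556 and 0.252 above all genes, and 1.18 and 0.649 on the shared array, where all genes stood at 0.399. Knockout array 2 less array 1 turned to -0.018 and -0.016 (all genes -0.179), pool 2 less pool 1 in Cy5 moved to -0.799 and -0.371 (all genes -0.537), and the metabolic median in Cy3 turned to 0.060. The cause of these shifts was not tested.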
